A study of Mus musculus with 8 samples.

Results

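The TCR α genes examined here were the V segments (Trav), J segments (Traj) and the constant gene (Trac) of the T-cell receptor α chain. Members were the table entries whose gene name was Trac or began with Trav or Traj and a number, which gave 189 of 47493 genes. There were 128 V segments, 60 J segments and 1 constant gene. The RNA came from 4 female C57BL/6 mice, 6 to 8 weeks old at the start. All 4 had received 200000 B16F10 melanoma cells on day 0, 300 mg/kg cyclophosphamide on day 3, 2000000 Pmel-1 T cells on day 5 with daily IL-2 (10000 IU), and weekly anti-CD4 antibody (200 μg, clone GK1.5) from day 10. On day 25, endogenous CD8+ T cells were isolated, with the Thy1.1-bearing Pmel-1 cells removed on beads, from spleen and inguinal lymph nodes of each mouse. Magnetic beads then retained the IL-18Rαhi-enriched cells, and the cells that passed the column were the flow-through, so n = 4 libraries per fraction and each mouse gave both. Libraries of the same replicate number were taken as both fractions of the same mouse, which the labels do not state. The flow-through was thus the rest of the same CD8+ preparation, and there were no untreated mice among these libraries.

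A T cell assembles its α chain by joining a V segment to a J segment, and splicing adds the constant exons. The V and J segments thus differ between T cells, while every αβ T cell transcribes Trac. V segments with dv in the name can also be joined to the δ chain of γδ T cells. In C57BL/6 mice a stretch of the V cluster is repeated, and the copies carry d or n in their names. In most T cells the pairing of V and J is diverse, but invariant NKT cells join Trav11 to Traj18 and mucosal-associated invariant T (MAIT) cells join Trav1 to Traj33.

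The J segments of both invariant chains are shown first because their length bears on whether they could be read in these data. Capitals mark the J motif, a codon for phenylalanine (TTN, which also covers leucine) or tryptophan (TGG) followed by a glycine codon (GGN), any codon and another GGN.
Traj18: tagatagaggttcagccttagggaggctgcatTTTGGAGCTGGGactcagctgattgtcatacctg
Traj33: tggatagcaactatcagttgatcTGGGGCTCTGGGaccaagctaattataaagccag
Traj18 spans 66 bases (mm10 chr14:54200777-54200842, plus strand) and Traj33 spans 57 bases (chr14:54185358-54185414, plus strand). Read on the coding strand in any frame, the form with TTN was in 46 of the 60 J segments and the form with TGG in 3, with 2 holding both, so that 47 (78.3%) held the motif. The sequences here and below are those of GENCODE M21 transcripts on mm10.

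The V segments of invariant NKT cells are shown next because the same reads can match several near-identical copies. Below are 90 bases from the 3′ end of each, with capitals where a copy differs from Trav11.
Trav11: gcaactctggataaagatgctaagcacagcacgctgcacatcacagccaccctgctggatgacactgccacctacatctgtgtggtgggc
Trav11d: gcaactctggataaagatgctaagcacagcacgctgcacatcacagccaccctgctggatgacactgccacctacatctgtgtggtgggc
Trav11n: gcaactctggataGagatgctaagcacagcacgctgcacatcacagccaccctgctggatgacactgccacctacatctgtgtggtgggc
These stretches lie at chr14:53519769-53519858 for Trav11, chr14:52824823-52824912 for Trav11d and chr14:53135588-53135677 for Trav11n, all on the plus strand. Over the whole segment Trav11d had no difference from Trav11, and Trav11n, annotated as a pseudogene, had 8.

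All 60 J segments were listed at 0 FPKM (fragments scaled to transcript length and library size) in all 8 libraries, Traj18 and Traj33 included. The rule's shares of the J class could therefore not be formed. The J segments had 29 to 72 bases. Over the whole table, 0 of 5675 genes whose longest transcript had at most 150 bases carried a value above 0 in any library, against 18 of 688 genes of over 150 and up to 200 bases and 644 of 2434 genes of over 300 and up to 400 bases. The 34 J segments of the other antigen receptor loci were also all at 0. A listed 0 for a J segment was thus shared with every gene of that length, and it gives no measurement of J use.

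**Figure D1:**
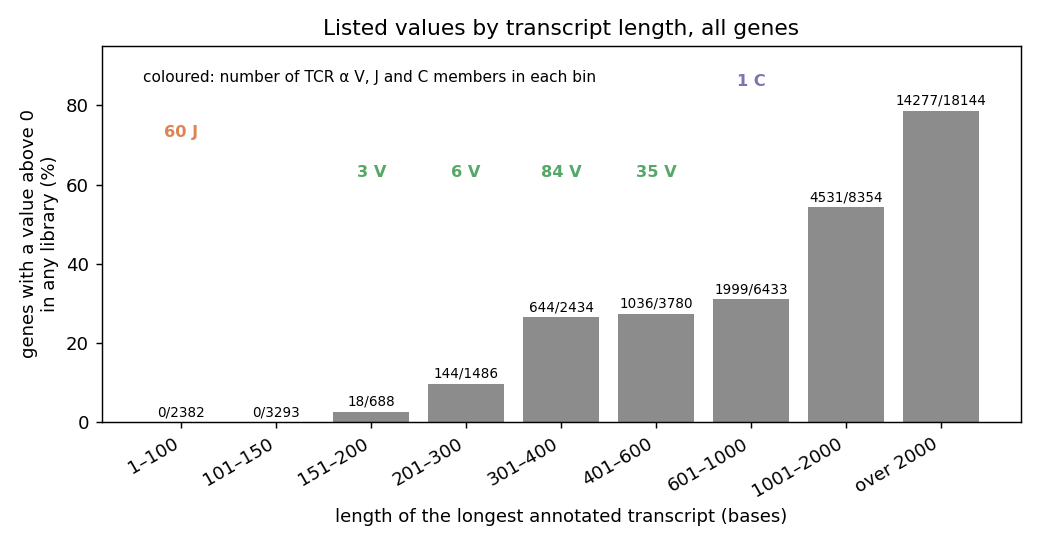
Percent of all genes with an FPKM above 0 in any library (vertical axis) by length of the longest annotated transcript in bases (horizontal axis). Numbers above the bars give genes with a value over genes in the bin, and the coloured numbers give the V, J and C members in each bin. No gene of up to 150 bases had a value, and all 60 J segments lie in that range.

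V segments are longer, with a median of 358 bases, and 81 of 128 had a value in at least 1 library, 63 of them in all 8. The other 47 were listed at 0 throughout. Of these 47, 37 (78.7%) had a copy of identical sequence among the other V segments, against 5 of the 81 (6.17%) with a value. By copy, 23 of 39 d copies and 18 of 34 n copies were at 0, against 6 of 55 segments with neither letter. Levels of segments that have close copies are therefore uncertain singly. Both members of some identical pairs, such as Trav14d-1 and Trav14n-1, were at 0 in all libraries. Reads that such copies share may thus be missing from the listed values, and so from the V sum and the subgroup sums, which was not tested. Trav11 is an example. It was listed at 0 in 7 libraries and at 1.08 FPKM in flow-through replicate 4, while its identical copy Trav11d was at 0 in all 8.

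A member's depth was gauged from low values of single-transcript genes within 15 bases of its length. The percentile 10 of their values above 0.05 FPKM, pooled over the 8 libraries, was taken as 1 fragment. This placed 1 fragment at a median of 0.336 FPKM for the V segments with a value. On that approximate scale a V value above 0 rested on a median of 17.7 fragments. The summed V segments came to about 961 to 1674 fragments in the flow-through, against 1891 to 2046 in the enriched libraries. Small shares thus rest on few fragments. The scale was the same for all libraries, so these sums follow FPKM and do not show how deeply each library was sequenced.

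Trac, the constant gene (ENSMUSG00000076928, chr14:54220521-54224206, plus strand), was higher in every enriched library than in any flow-through library. It was at 334, 575, 545 and 600.5 FPKM in flow-through replicates 1 to 4 and at 742, 699.7, 713 and 716 FPKM in enriched replicates 1 to 4. The means were 514 ± 122 and 718 ± 17.8 FPKM (SD, n = 4), a ratio of 1.40. The difference did not pass limma's test, fitted over the 12166 genes whose mean reached 1 FPKM (log2 fold change 0.52, SE 0.17, adjusted p = 0.0567). With the mouse as a block, limma's adjusted p for Trac was 0.0323. Flow-through replicate 1 was the lowest library. Without it, limma gave a log2 fold change of 0.32 with an adjusted p of 0.00861, and without flow-through replicate 4 it gave 0.61 with an adjusted p of 0.0475. In these bulk samples, fewer αβ T cells and less TCR α RNA per cell cannot be told apart.

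The summed V segments were likewise higher in every enriched library. Their level was 300.2, 529, 453 and 528 FPKM in the flow-through, against 636, 598, 618 and 618 FPKM in the enriched libraries, with no overlap and a ratio of means of 1.36. The ratio was 1.23 without flow-through replicate 1. The summed V level stood at 0.832 to 0.921 of Trac in the flow-through, against 0.854 to 0.866 in the enriched libraries, so the ranges overlapped. The CD3 chains (Cd3d, Cd3e, Cd3g and Cd247), which carry the receptor's signal into the cell, did not pass limma's test (0 of 4, and 0 of 4 with the mouse as a block). Trac divided by their summed level was 0.665, 0.612, 0.698 and 0.630 in the flow-through, against 0.767, 0.760, 0.763 and 0.761 in the enriched libraries. On that scale, too, every enriched library lay above every flow-through library. When each library was scaled to equal summed CD3 level, however, Trac did not pass limma's test, with a log2 fold change of 0.23 and an adjusted p of 0.229, while the median of all genes shifted from -0.02 to -0.28.

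**Figure D2:**
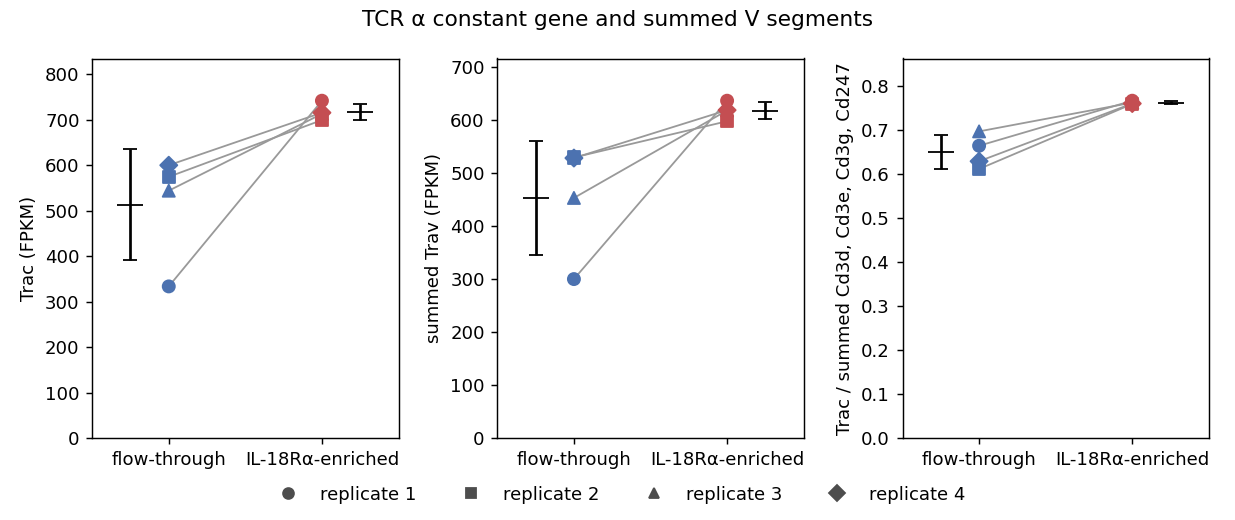
Trac, the summed V segments (both in FPKM) and Trac divided by the summed CD3 chains, by fraction (horizontal axis). Symbols are libraries, grey lines join same-numbered libraries, taken as a mouse, and black bars give mean ± SD (n = 4). In each panel the 4 enriched libraries sit above all 4 flow-through libraries, and flow-through replicate 1 is the lowest for Trac and for the V sum.

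Of the 189 members, 68 reached a mean of 1 FPKM and entered limma's test. These were Trac and 67 V segments, while 14 more V segments had a value below that level. Of the 68, 8 V segments were higher in the enriched fraction and 0 members were lower. Over all tested genes, 14.1% were called higher and 13.7% lower. The share of members called higher (11.8%) was thus near that of all genes. At an unadjusted p under 0.05, 18 members were higher and 1 was lower in limma's fit. The share of all tested genes at that threshold is not given here, so these counts are not read as particular to the members. The median log2 fold change was 0.34 over the members tested and -0.02 over all tested genes, and 55 of the 68 were above 0. With the mouse as a block, 18 members were called higher (22.2% of all genes) and 1, Trav4-2, lower (22.7% of all genes). The 8 segments were among those 18, as were Trac and Trav1. With the CD3 scaling only Trav13d-1 and Trav16 were called. Calls over all 12166 genes fell as well under that scaling, from 1720 to 580 higher and from 1664 to 717 lower. By FPKM alone, 11 of the 68 were higher in every enriched library than in any flow-through library (16.4% of all tested genes) and 0 were lower in every one (15.9%).

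The 8 called segments were Trav3-1, Trav7-4, Trav13d-1, Trav15-1-dv6-1, Trav15d-1-dv6d-1, Trav16, Trav16n and Trav21-dv12. Of these 8, only Trav3-1 and Trav16n passed without enriched replicate 4, and 4 passed without flow-through replicate 3 or without enriched replicate 3. Trav3-1 was past the threshold whichever library was left out. Trav15-1-dv6-1, which the δ chain can also use, had the largest fold change of the 8 on the log2(FPKM + 1) scale, while with a pseudocount of 0.1 it was 1.17 against 1.74 for Trav15d-1-dv6d-1. Trav15-1-dv6-1 was at 3.94, 6.51, 3.16 and 7.20 FPKM in the flow-through, against 10.0, 10.1, 9.06 and 17.1 FPKM in the enriched libraries (by limma, log2 fold change 1.04, SE 0.26, adjusted p = 0.0214). Every enriched library was above every flow-through library, and enriched replicate 4 was the highest. Its copy Trav15d-1-dv6d-1 was at 0.263, 0.761, 1.08 and 0.295 FPKM and then at 1.01, 2.03, 2.72 and 2.66 FPKM, a log2 fold change of 0.95 (adjusted p = 0.0240 by limma), and the ranges overlapped. It is identical in sequence to Trav15n-1, so its own level is uncertain. The last 90 bases of both named copies are shown because these copies were both called, with capitals where Trav15d-1-dv6d-1 differs.
Trav15-1-dv6-1: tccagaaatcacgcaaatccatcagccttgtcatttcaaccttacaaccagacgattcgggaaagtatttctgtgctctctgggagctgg
Trav15d-1-dv6d-1: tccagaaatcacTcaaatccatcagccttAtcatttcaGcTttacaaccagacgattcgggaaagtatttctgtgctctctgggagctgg
They lie at chr14:53560158-53560247 and chr14:52863847-52863936, on the plus strand, and differ at 4 of these 90 bases.

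Trav13d-1 (chr14:52851290-52851866) was at 1.37, 3.94, 2.41 and 3.05 FPKM in the flow-through, against 5.16, 5.56, 5.13 and 7.17 FPKM in the enriched libraries. By limma the log2 fold change was 0.91 (SE 0.22) and the adjusted p 0.0175. Its fractions did not overlap, and its closest copy, Trav13n-1, differs by 1 base. Trav3-1 (chr14:52580665-52581213) went from 2.35 ± 0.797 to 5.04 ± 1.07 FPKM (SD, n = 4). By limma the log2 fold change was 0.86 and the adjusted p 0.0135. Trav16 (chr14:53743104-53743705) rose from 13.0, 24.9, 24.5 and 24.1 FPKM to 40.6, 31.7, 41.6 and 41.9 FPKM (by limma, log2 fold change 0.85, SE 0.20, adjusted p = 0.0175). The remaining 3, Trav21-dv12, Trav7-4 and Trav16n, had log2 fold changes of 0.80, 0.71 and 0.53.

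Because Trac and the V sum were themselves higher in the enriched fraction, each V segment was also expressed as a share of the summed V level of its library. This removes a common change of all V segments and leaves the balance among them. Trav16n took 5.81 ± 1.27% of the V sum in the flow-through, against 5.98 ± 0.681% in the enriched libraries (SD, n = 4). Trav16, which is 98.5% identical to it, took 4.75 ± 0.459% and 6.30 ± 0.685%. Trav13-1 took 4.41 ± 0.981% and 4.98 ± 2.89%, Trav3-3 took 3.35 ± 0.728% and 4.11 ± 0.959%, and Trav12-2 took 3.71 ± 0.384% and 2.80 ± 0.744%. For each of these 5 the libraries of the fractions overlapped, although Trav16 had the largest difference in mean share of any V segment (1.54 percentage points).

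**Figure D3:**
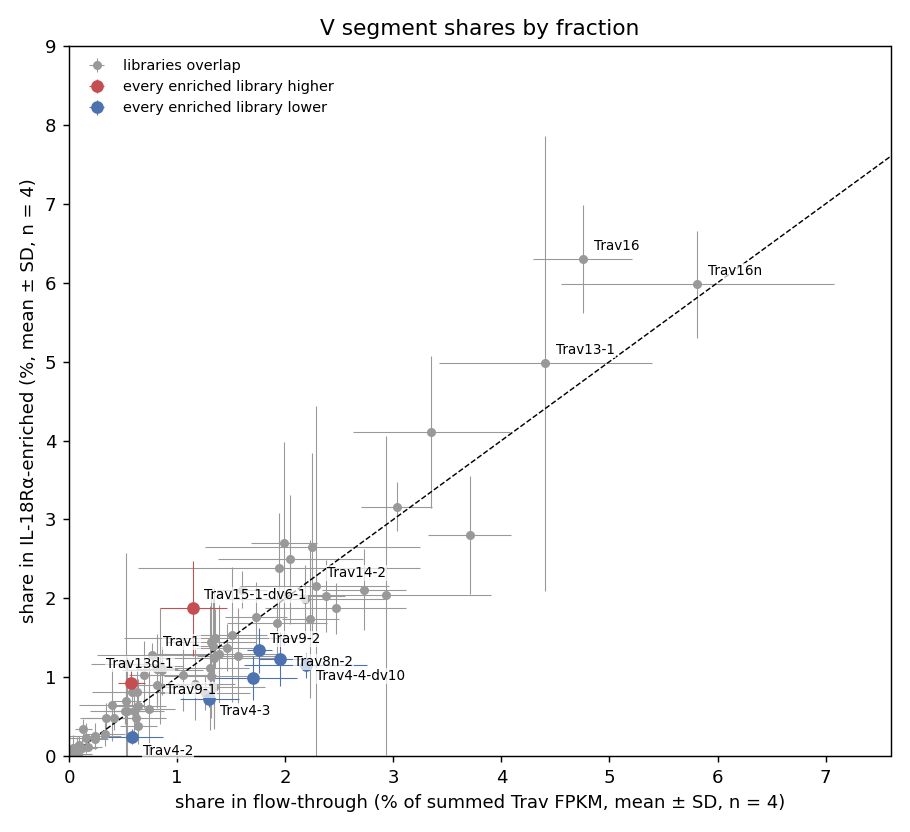
Mean share of the summed V level (percent) of each V segment with a value, in the flow-through (horizontal axis) and in the enriched libraries (vertical axis), with SD bars (n = 4) and the line of equal shares dashed. Red points are the 2 segments higher in every enriched library, blue points the 6 lower in every enriched library. Trav16, at 4.75 and 6.30%, lies above the line although its libraries overlap.

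The shares of 8 of the 128 V segments did not overlap between the fractions. In 2 of them every enriched library was higher and in 6 every enriched library was lower, and all 8 were among the 67 V segments in limma's test. Divided by the same V sum, 5.03% of all tested genes lay higher in every enriched library and 46.7% lower. These percentages are read with the V sum itself 1.36 times as high in the enriched fraction, and the shares of the members are bound to sum to 100 in each library. Counted instead by same-numbered libraries, 7 V shares were higher in 4 of 4 mice and 7 lower in 4 of 4, against 8.11% and 59.9% of all tested genes. Neither count carries a p-value.

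Trav15-1-dv6-1 and Trav13d-1 had the higher shares. Trav15-1-dv6-1 took 1.31, 1.23, 0.697 and 1.36% of the V sum in the flow-through, against 1.57, 1.70, 1.47 and 2.76% in the enriched libraries. Its mean share was 1.63 times as high, with enriched replicate 4 well above the other three. Trav13d-1 took 0.455, 0.744, 0.533 and 0.577% and then 0.811, 0.931, 0.830 and 1.16%, or 1.62 times as much. The next segments by same-numbered libraries, each higher in 4 of 4 mice although the fractions overlapped, were Trav1, Trav10n, Trav15d-1-dv6d-1, Trav16 and Trav21-dv12.

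The 6 lower shares came from the Trav4, Trav8 and Trav9 subgroups. Of these 6, Trav4-4-dv10 had the largest difference in mean share, from 2.83, 2.35, 2.11 and 1.46% to 1.30, 0.928, 1.15 and 1.23% of the V sum. Trav4-3 went from 1.34, 1.45, 1.49 and 0.904% to 0.679, 0.845, 0.757 and 0.619%. Trav4-2 went from 0.367, 0.400, 0.570 and 0.987% to 0.108, 0.290, 0.272 and 0.321%. All 3 Trav4 segments had mean enriched shares at 0.426 to 0.559 of their flow-through means. Trav4-2 is the thinnest of them, with about 1.86 to 14.1 fragments per library.

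Trav9-1 went from 1.27, 2.17, 1.47 and 1.89% to 0.612, 0.941, 1.22 and 1.19%, and Trav9-2 from 1.76 ± 0.116% to 1.34 ± 0.287%. Trav8n-2 went from 1.95 ± 0.197% to 1.23 ± 0.337% (SD, n = 4). In every case the gap between the closest libraries of the fractions was smaller than the range within either. In FPKM none of the 6 passed limma's test without the block, and Trav9-2 had a log2 fold change of 0.06. Trav4-4-dv10 had a log2 fold change of -0.37 (SE 0.16) with an adjusted p of 0.113 by limma, and Trav4-2 one of -0.50 with an adjusted p of 0.280, or 0.0448 with the mouse as a block.

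The 3 Trav4 segments are shown because all 3 had lower shares in every enriched library. Below are the last 90 bases of each, with capitals where a segment differs from Trav4-4-dv10.
Trav4-4-dv10: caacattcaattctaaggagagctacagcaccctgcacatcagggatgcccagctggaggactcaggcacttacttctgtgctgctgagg
Trav4-3: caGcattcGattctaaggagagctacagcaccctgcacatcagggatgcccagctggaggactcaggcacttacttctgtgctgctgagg
Trav4-2: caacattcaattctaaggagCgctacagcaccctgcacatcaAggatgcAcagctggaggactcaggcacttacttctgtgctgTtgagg
They lie at chr14:53684088-53684177, chr14:53599321-53599410 and chr14:53418784-53418873, on the plus strand. Over this stretch Trav4-3 differs from Trav4-4-dv10 at 2 bases and Trav4-2 at 4.

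The segments of each numbered subgroup, which hold most close copies, were also summed. Of 23 subgroups, 1 did not overlap between the fractions. It was Trav4, with 9 segments of which 4 had a value. Among the others, Trav4d-3 and Trav4n-3 are identical in sequence, as are Trav4d-4 and Trav4n-4. Any reads that these copies share may be missing from the sum. The Trav4 subgroup took 4.54, 4.29, 4.39 and 3.35% of the V sum in the flow-through, against 2.16, 2.06, 2.47 and 2.26% in the enriched libraries. The ranges were well apart, and the ratio of means was 0.540. The Trav9 subgroup took 7.01 ± 0.526% and 5.28 ± 1.10%, with overlap, and the Trav8 subgroup took 6.75 ± 0.914% and 6.28 ± 1.34%. The Trav15 subgroup, 2.79 ± 0.488% in the flow-through, against 3.76 ± 1.49% in the enriched libraries, also overlapped, and the separation of Trav15-1-dv6-1 was not seen for its subgroup as a whole.

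**Figure D4:**
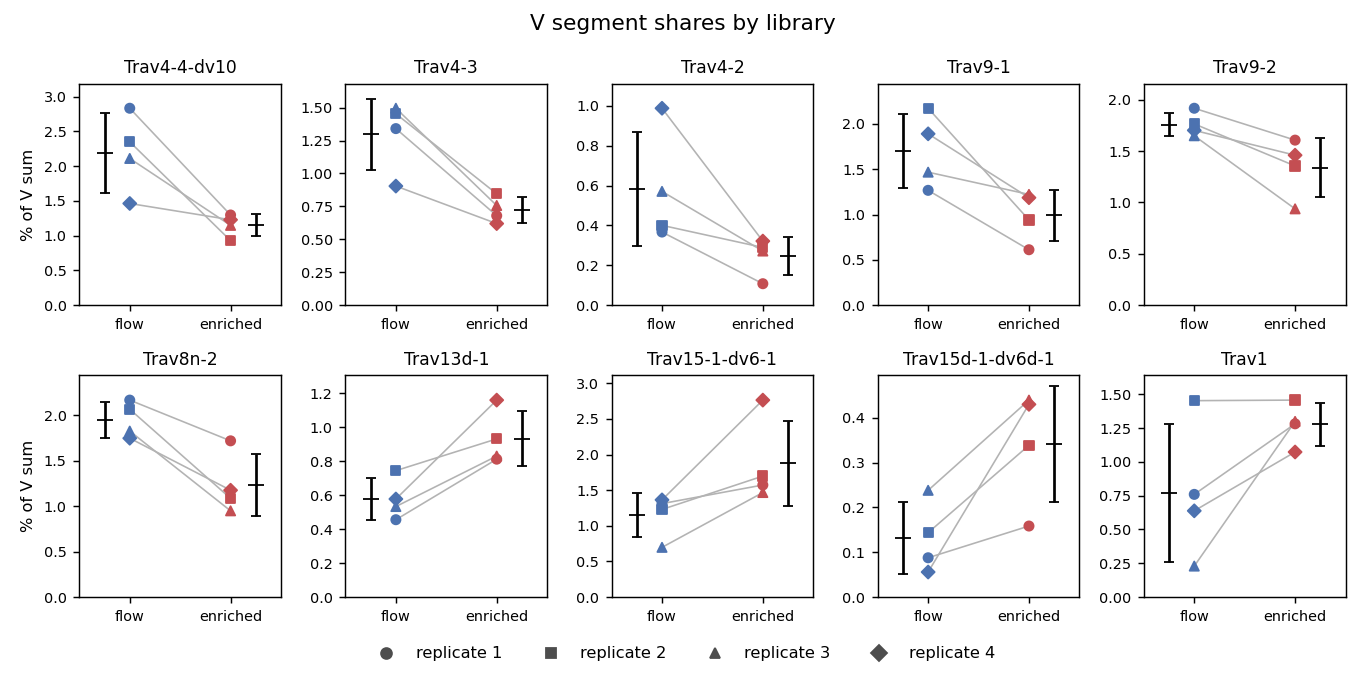
Share of the summed V level (percent, vertical axes from 0) in the flow-through library and the enriched library of each mouse for 10 V segments. Symbols are replicates, grey lines join same-numbered libraries, taken as a mouse, and black bars give mean ± SD (n = 4). The first 6 panels, from Trav4-4-dv10 to Trav8n-2, are lower in every enriched library, Trav13d-1 and Trav15-1-dv6-1 are higher in every enriched library, and Trav15d-1-dv6d-1 and Trav1 are higher in 4 of 4 mice with overlap.

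Trav1, the V segment of MAIT cells (chr14:52427928-52428876, 371 bases), has no close copy, its nearest being 58.0% identical. It was at 2.28, 7.69, 1.04 and 3.37 FPKM in the flow-through, against 8.15, 8.71, 8.03 and 6.64 FPKM in the enriched libraries. The enriched libraries were alike, while flow-through replicate 2 stood as high as them. As a share it took 0.760, 1.45, 0.229 and 0.638% of the V sum in the flow-through, against 1.28, 1.46, 1.30 and 1.07% in the enriched libraries. The mean share was higher by 0.508 percentage points, with p = 0.114 by the exact two-sided permutation test over 70 arrangements. The smallest p this test allows is 0.0286. Benjamini-Hochberg adjustment over the Trav1 and Trav11 shares gave 0.229 for Trav1, although the outcome for Trav11 was fixed in advance, as given below. In replicate 2 the shares of the fractions were nearly equal, and the enriched share was higher in 4 of 4 mice. Without flow-through replicate 2 the difference was 0.736 with an exact permutation p of 0.0286, the smallest that 35 arrangements allow. That library was the only one of the flow-through within the enriched range. Leaving it out separates the fractions fully, so this p follows from the choice of library and decides nothing. With any other library left out the exact permutation p was 0.114 to 0.257. On the FPKM level, limma gave 1.15 (SE 0.38) as log2 fold change, with an adjusted p of 0.0529, and 0.0200 with the mouse as a block.

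Trav11, the V segment of invariant NKT cells, had no usable level of its own. Its share was 0.205% in flow-through replicate 4 and 0 in the other 7 libraries. With a single library above 0, every arrangement gives the same absolute difference, so the permutation test could not decide anything for Trav11. Trav11n was at 1.02, 0.977, 1.51 and 0.562 FPKM in the flow-through, against 2.36, 0.973, 1.43 and 0.558 FPKM in the enriched libraries. Those values correspond to about 1.20 to 5.08 fragments. Taken as 1 value, chosen after the values had been seen, Trav11, Trav11d and Trav11n held 0.340, 0.185, 0.333 and 0.312% of the V sum in the flow-through, against 0.371, 0.163, 0.232 and 0.0903% in the enriched libraries. The fractions overlapped (exact two-sided permutation p = 0.343). Outside flow-through replicate 4 this value was that of Trav11n alone, which is annotated as a pseudogene. It therefore does not measure the use of Trav11 or Trav11d, and no conclusion on invariant NKT cells is drawn from it.

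Genes known from invariant T cells or from their recognition were taken beside these segments. Of 9 such genes, all tested by limma, 6 were higher in the enriched fraction (14.1% of all genes) and 0 lower (13.7%). With the mouse as a block, 7 were higher (22.2% of all genes). Klrb1c and Blk, counted here, are also in the NK-cell and γδ T-cell marker lists, respectively. The 6 were Zbtb16, which encodes the transcription factor PLZF of innate-like T cells, Klrb1c, which encodes NK1.1, the adaptor gene Sh2d1a, the receptor gene Slamf1, Il23r and Blk. Zbtb16 went from 0.405 ± 0.255 to 1.93 ± 0.693 FPKM (SD, n = 4; log2 fold change 1.04, adjusted p = 0.0114 by limma). Mr1 and Cd1d1, which encode the molecules that MAIT and invariant NKT cells recognize, had log2 fold changes of -0.06 and -0.13.

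Some genes of the other receptor chains and of γδ T cells were also higher in the enriched fraction. Of the 6 other constant genes, Trbc2 and Trdc were higher by limma (14.1% of all genes), and 5 of 6 were with the mouse as a block (22.2%). Trdc, the δ constant gene, was at 3.67, 9.18, 7.18 and 12.0 FPKM in the flow-through, against 10.3, 18.3, 16.1 and 24.6 FPKM in the enriched libraries. Enriched replicate 4 was the highest library for Trdc and for Trav15-1-dv6-1, and also for Cd4, Ncr1, Klrb1c and Klra8. Of the 9 γδ T-cell markers 4 were higher by limma (14.1% of all genes) and 8 with the block (22.2%), and none was at 0. Their summed level was 79.2 to 129 FPKM in the flow-through, against 113 to 250.3 FPKM in the enriched libraries. The part of γδ T cells in the share of Trav15-1-dv6-1 was not tested. The 10 V segments with dv in the name together took 13.6, 13.4, 15.4 and 13.3% of the V sum in the flow-through, against 14.7, 16.7, 12.9 and 16.4% in the enriched libraries, with overlap, and Trav4-4-dv10 was among them.

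Markers of the labelled cells were high in all libraries. The 7 CD8 T-cell markers summed to 1148 to 2154 FPKM in the flow-through, against 2180 to 2361 FPKM in the enriched libraries, and flow-through replicate 1 was the lowest. Markers of CD4 T cells, Cd40lg and Cd4, summed to 2.11 to 4.57 and 16.6 to 22.6 FPKM. Cd40lg made up most of this sum, with means of 3.13 and 15.6 FPKM, against 0.662 and 3.93 FPKM for Cd4. The paper lists Cd40lg among innate-like T-cell markers that were higher in the enriched cells. The sum is therefore not read as a measure of CD4 T cells. Markers of NK cells summed to 12.0 to 22.4 and 32.6 to 74.2 FPKM, and those of myeloid cells to 107 to 374 and 356 to 855 FPKM. B-cell markers summed to 19.4 to 53.2 and 25.8 to 64.8 FPKM, and erythroid markers to 768 to 2332 and 173 to 1162 FPKM. The ranges of the myeloid, B-cell and erythroid sums overlapped. By limma, 2 of 4 tested myeloid, 2 of 2 CD4 T-cell and 3 of 4 NK-cell markers were higher (14.1% of all genes). Of 4 tested B-cell markers 0 were higher. With the mouse as a block, 3 of 4 myeloid and 1 of 4 B-cell markers were higher (22.2% of all genes). Among the 5 erythroid markers, Car1, a carbonic anhydrase gene, was lower by limma (882 ± 328 and 153 ± 80.8 FPKM, SD, n = 4, adjusted p = 0.00302) and its fractions did not overlap, and 4 of 5 were lower with the mouse as a block. No marker in these lists was at 0 in all libraries. Their part in the level of the TCR α genes was not tested.

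The enriched libraries resembled each other less in V use than the flow-through libraries did. Across the 81 V segments with a value, Pearson correlations of the shares were 0.859 to 0.913 between flow-through libraries and 0.738 to 0.798 between enriched libraries. These describe points that share a library and its depth, and no test was made. Over log2(FPKM + 1) of all 12166 tested genes the order was not the same, with 0.943 to 0.986 within the flow-through, against 0.966 to 0.987 within the enriched fraction. Of 60 segments with a mean share of at least 0.5% in either fraction, 43 had the larger SD in the enriched libraries, and 35 to 45 did when any 1 library was left out. The depth of each library is not known, and its part in this spread was not tested.

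Single segments stood out in single libraries of both fractions. By the rule given below, 8 of 130 groups of 4 libraries held such a library, and chance alone gives about 6.5. In the flow-through, Trav8-1 took 3.73% of the V sum in replicate 1 and 1.67 to 1.93% in the others, and Trav8d-1 took 1.02% in replicate 4 and 0.477 to 0.549% in the others. Trav13-1 took 3.81, 3.28, 3.53 and 9.30% of the V sum in enriched replicates 1 to 4, against 3.27 to 5.33% in the flow-through. Trav14-2 took 5.54, 0.712, 1.46 and 0.901% in the enriched and 1.47 to 2.87% in the flow-through libraries. Trav5-1 took 2.24% in enriched replicate 2 and 0.709 to 0.868% in the other enriched libraries. Each of these 3 peaks was in a different mouse, and the flow-through libraries of those mice held 3.91% for Trav13-1, 2.87% for Trav14-2 and 0.878% for Trav5-1. The 5 largest segments of each library together took 20.97 to 24.2% of the V sum in the flow-through, against 23.2 to 28.4% in the enriched libraries, higher in 4 of 4 mice with overlap. The number of equally used segments that would give the same entropy was 48.4, 53.3, 49.9 and 54.3 in the flow-through, against 46.8, 50.3, 51.8 and 47.6 in the enriched libraries, with overlap. No segment held more than 9.30% of the V sum in any library.

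**Figure D5:**
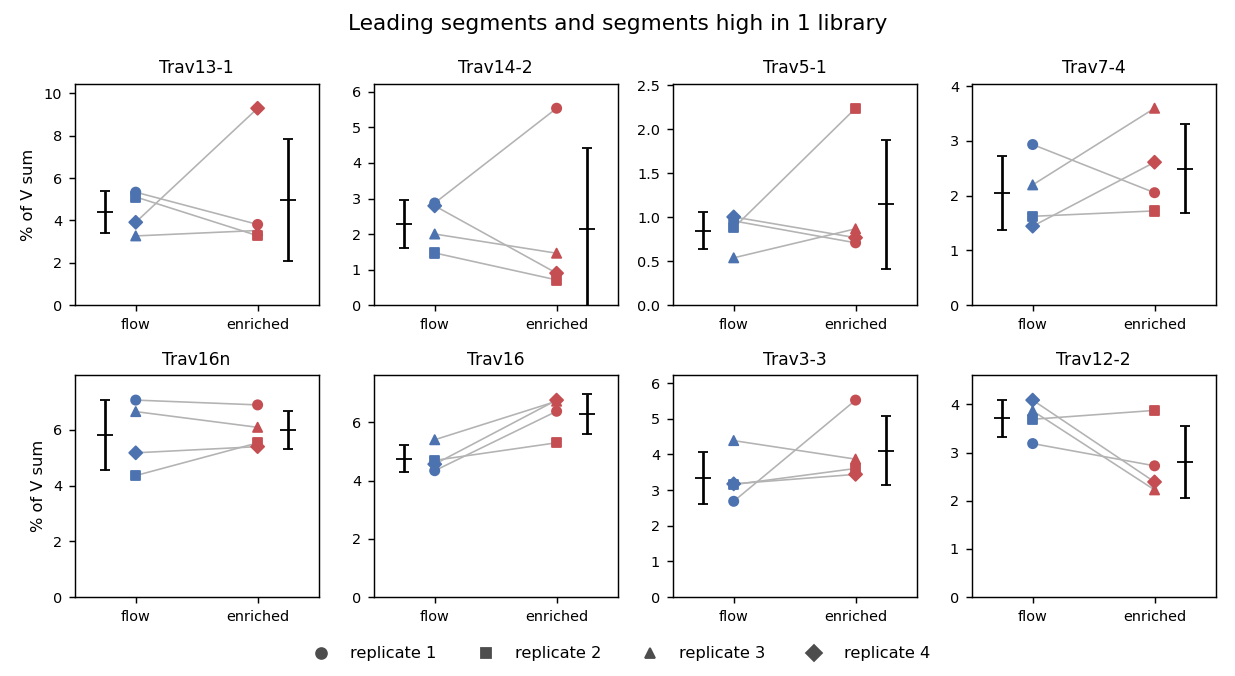
Share of the summed V level (percent, vertical axes from 0) in the flow-through library and the enriched library of each mouse for 8 V segments, with symbols, lines and bars (mean ± SD, n = 4) as in the plot of shifted segments. Trav13-1, Trav14-2 and Trav5-1 each have 1 enriched library far above the other three, in mice 4, 1 and 2, while the libraries of Trav16n and Trav16 lie closer together.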

How the data were processed

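Libraries were stranded poly(A) RNA-seq with paired 150-base reads. The authors mapped reads to mm10 with TopHat and computed FPKM with Cufflinks 2.1.1, with correction for multiply mapped reads and fragment bias. The annotation release is not given in the sources used here. The deposited unit is FPKM, so no count model or counting interval was used, and the depth of each library is not known.

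All 189 members were found in GENCODE M21, which describes the same build and gave coordinates, lengths and sequences. No protein or promoter sequence of these genes was at hand, so none is shown. limma 3.58.1 (R 4.3.3, variance trend, log2(FPKM + 1), mean of at least 1 FPKM, Benjamini-Hochberg adjusted p under 0.05) was fitted to the whole table without a block. Fold changes on this scale understate those of low genes. The Trav1 and Trav11 shares were put through an exact two-sided permutation test (70 arrangements of the libraries), whose outcome for Trav11 alone was fixed in advance. Other shares and sums over members are given without a p. Scripts were tested on simulated data.

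The labels do not state that equal replicate numbers mark the same mouse, so the pairing is an assumption. Samples of the same number deviated together over all tested genes (correlations of deviations from the fraction means 0.308 to 0.660). Over V shares these correlations were only -0.0131 to 0.407, and replicates 3 and 4 each correlated more with another number. The blocked value is printed where it changed a call. Members and gene lists were chosen with earlier results of these data known. Genes were named as follows: Trac, the segments of the invariant chains, the 5 largest mean shares, up to 10 segments per direction whose shares did not overlap (mean of at least 0.5% in the higher fraction), and up to 5 segments per direction by fold change among limma calls. Other V segments named, such as Trav5-1, Trav7-4, Trav10n, Trav14-2 and Trav21-dv12, were chosen after their values had been seen.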

Additional observations from a re-analysis of the deposited data

Results flagged for a closer look

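Among groups of 4 libraries, a library is listed here when its gap to the nearest other library, as a part of the group's range, exceeded Dixon's 95% critical value. The shares of 60 V segments with a mean of at least 0.5% in either fraction were examined, with 5 summary values, in both fractions. There were 8 such libraries among 130 groups, and chance alone gives about 6.5. Trav13-1 took 9.30% of the V sum in enriched replicate 4, against 3.28 to 3.81% in the others. Trav14-2 took 5.54% in enriched replicate 1, against 0.712 to 1.46%. Trav5-1 took 2.24% in enriched replicate 2, against 0.709 to 0.868%. Trav7-5 took 2.70% in enriched replicate 1, against 3.26 to 3.36%. Trav8-1 took 3.73% in flow-through replicate 1, against 1.67 to 1.93%, and Trav5-4 took 1.08% there, against 2.45 to 2.61%. Trav16d-dv11 took 1.53% in flow-through replicate 4, against 2.11 to 2.17%, and Trav8d-1 took 1.02% there, against 0.477 to 0.549%.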

How the results depend on the processing

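The number of members called higher by limma, 8, was 18 with the replicate block (1 lower, against 0), 5 with a mean of at least 5 FPKM (45 members tested) and 2 with CD3 scaling, and the cause of the last was not tested. It was 4 to 10 when 1 library was left out, with the fewest without flow-through replicate 3 (4) and enriched replicate 3 (5). Without enriched replicate 4 it was 6, of which 2 were among the 8. Over all 12166 tested genes, 1720 were called higher, against 2705 with the block and 580 with CD3 scaling. With a mean of at least 5 FPKM, 1338 of 9329 genes were called higher. With 1 library left out, 1124 to 1802 of all tested genes were called higher. Trac passed the threshold with the replicate block (log2 fold change 0.52) and without flow-through replicate 1 (0.32) or 4 (0.61), and its log2 fold change lay between 0.32 and 0.61 when 1 library was left out. It was 0.23 with CD3 scaling and 0.32 with quantile normalization, neither past the threshold. Against 2 higher and 6 lower V shares without overlap, the replicate block (same direction in 4 of 4 pairs) gave 7 higher and 7 lower, which included those 2 and 6. Merged subgroups gave 0 higher and 1 lower, the Trav4 subgroup. With 1 library left out, which makes separation easier by construction, the counts were 2 to 5 higher and 6 to 10 lower, and all 8 segments kept their separation. They were 5 higher without flow-through replicate 3 or enriched replicate 1 and 10 lower without enriched replicate 2. The shares of Trav1 differed by 0.328 to 0.736 with 1 library left out. Only without flow-through replicate 2, the 1 library that made the fractions overlap, was the difference past the threshold, which follows from that choice. An exact sign-flip permutation over the pairs gave p = 0.125 for Trav1, the smallest it allows. The J segments, all at 0, gave no value under any alternative.

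A V segment at the median value rests on about 17.7 fragments, which limits the precision of small shares, and J use was not measurable.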
